A study of Homo sapiens with 2 samples.

Results

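The genes described here encode the microfibril and elastic fibre machinery, namely the microfibril glycoproteins MFAP2, MFAP4 and MFAP5, the fibrillins FBN1 and FBN2, elastin (ELN), the fibulin FBLN5 and the lysyl oxidases LOX, LOXL1 and LOXL2. Their members were all probe sets that the platform annotation assigned to 1 of these symbols alone, which gave 22 of 54613 probe sets and 10 of 19775 genes. The genes were picked with the difference between the lines already known, so their values are a description. The study measured RNA of AGS, a human gastric adenocarcinoma line, in stable AGS.W cells that had been infected with a puromycin-selected lentivirus carrying the WTX coding region, and in AGS.veh cells, the negative control line. Each line was read by 1 Affymetrix U133 Plus 2.0 array, so a difference has no replicate check, no p-value and no standard error. Values are log2 signals as the authors processed them, and a difference is AGS.W minus AGS.veh, where 1 unit is a factor of 2.

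Elastic fibres give skin, lung and vessels their recoil. Fibrillins polymerise outside the cell into microfibrils, to which the small glycoproteins MFAP2 and MFAP5 bind, and these microfibrils form a scaffold on which fibulins help to deposit elastin. Lysyl oxidases are copper enzymes that cross-link elastin and collagen. Most of these genes are best known from fibroblasts and smooth muscle cells, and LOX, LOXL2 and MFAP5 have also been studied in tumours.

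The median of the AGS.W array was 4.02 and that of the AGS.veh array 4.03. A probe set below them may carry little but background. Of the 22 probe sets, 11 reached the median on both arrays, 16 on at least 1 array, and 6 on neither. AMER1, the gene of WTX, had 1 probe set with log2 signals of 3.70 in AGS.W against 3.86 in AGS.veh. Whether that probe set lies in the coding region of the vector was not settled here, so it is no check of the labels. The labels name brain tissue in their extraction text and AGS cells elsewhere. Of the epithelial markers, KRT18 had log2 signals of 10.87 and 11.17, KRT8 of 9.76 and 10.13, EPCAM of 6.88 and 5.96, CLDN4 of 5.87 and 6.23 and CLDN7 of 7.24 and 6.92 in AGS.W and AGS.veh, whereas CDH1 and KRT19 were below the median on both arrays. Of 6 brain markers, GFAP, S100B and NEFL were below it on both arrays. The brightest probe sets of the other 3 were above it on both, with 6.10 and 6.19 for MBP, 4.59 and 4.46 for RBFOX3 and 4.51 and 4.65 for SYP.

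Promoter sequence is shown for FBN2 and LOX, which had a probe set at least 2-fold apart in opposite directions and an entry in RefSeq's promoter table for GRCh38.p14. MFAP5, MFAP4, ELN and LOXL2 were not matched in that table. Each run gives the 250 bases before the annotated start, 5′ to 3′ on the minus strand of chromosome 5. Capitals mark ACGTG or GCGTG on either strand, the core letters to which hypoxia-inducible factors bind, a motif chosen after the values were seen because LOX is a known target of these factors.
FBN2, chr5:128538246-128538495: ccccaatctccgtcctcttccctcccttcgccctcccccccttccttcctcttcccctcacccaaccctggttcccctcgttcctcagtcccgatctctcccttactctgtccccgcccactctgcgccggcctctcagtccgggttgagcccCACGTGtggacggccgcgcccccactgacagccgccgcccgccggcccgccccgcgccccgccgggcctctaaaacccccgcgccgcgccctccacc
LOX, chr5:122078260-122078509: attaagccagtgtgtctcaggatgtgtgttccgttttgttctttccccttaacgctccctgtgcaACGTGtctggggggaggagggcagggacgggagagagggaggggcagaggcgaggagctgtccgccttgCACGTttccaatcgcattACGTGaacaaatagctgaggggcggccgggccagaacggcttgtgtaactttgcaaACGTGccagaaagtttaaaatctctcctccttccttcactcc
The LOX window held ACGTG at 4 places. The FBN2 window held it at 1 place that reads on both strands, so that both matches overlap as the palindrome CACGTG. Among the first promoters of 27305 genes, 18.6% held ACGTG and 43.1% held ACGTG or GCGTG. A match is only a description of letters, and the single GCGTG matches of FBN1 and MFAP2 and the 4 of FBLN5 are of the same kind. The LOXL1 window held neither form.

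MFAP5 had the largest difference of the group and was higher in AGS.W on every probe set. Its encoded protein, also called MAGP-2, binds fibrillins and, through an RGD motif, integrins. Probe set 209758_s_at had log2 signals of 9.05 in AGS.W against 6.75 in AGS.veh, a difference of 2.30, or 4.92-fold. Probe set 213765_at had 6.31 and 3.92, a difference of 2.38. Probe set 213764_s_at had 5.46 and 3.24, a difference of 2.23. The 3 differences thus lay within 0.15 of each other, although only the first probe set was above the median in AGS.veh. With the dim AGS.veh signal set to the array median, the others had at least 4.86-fold and 2.71-fold higher signal. The annotation gives these others the same source sequence, so they are not separate readings of the gene. Among all 54613 probe sets the 3 stood at ranks 21, 25 and 28 from the highest difference.

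The other microfibril glycoproteins were not higher. MFAP2, the closest relative of MFAP5 and also known as MAGP-1, had log2 signals of 6.08 in AGS.W against 7.05 in AGS.veh on its single probe set, a difference of -0.97, or 1.96-fold lower. MFAP4, an integrin-binding protein of elastic fibres that is unrelated to them in sequence, had the identical value of 3.44 on both arrays. Identical values were found for 6900 probe sets, and 3.44 is below the array medians, so this value may be little but background. MFAP5 and MFAP2, which bind the same fibrillins, therefore stood on opposite sides of 0.

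**Figure D1:**
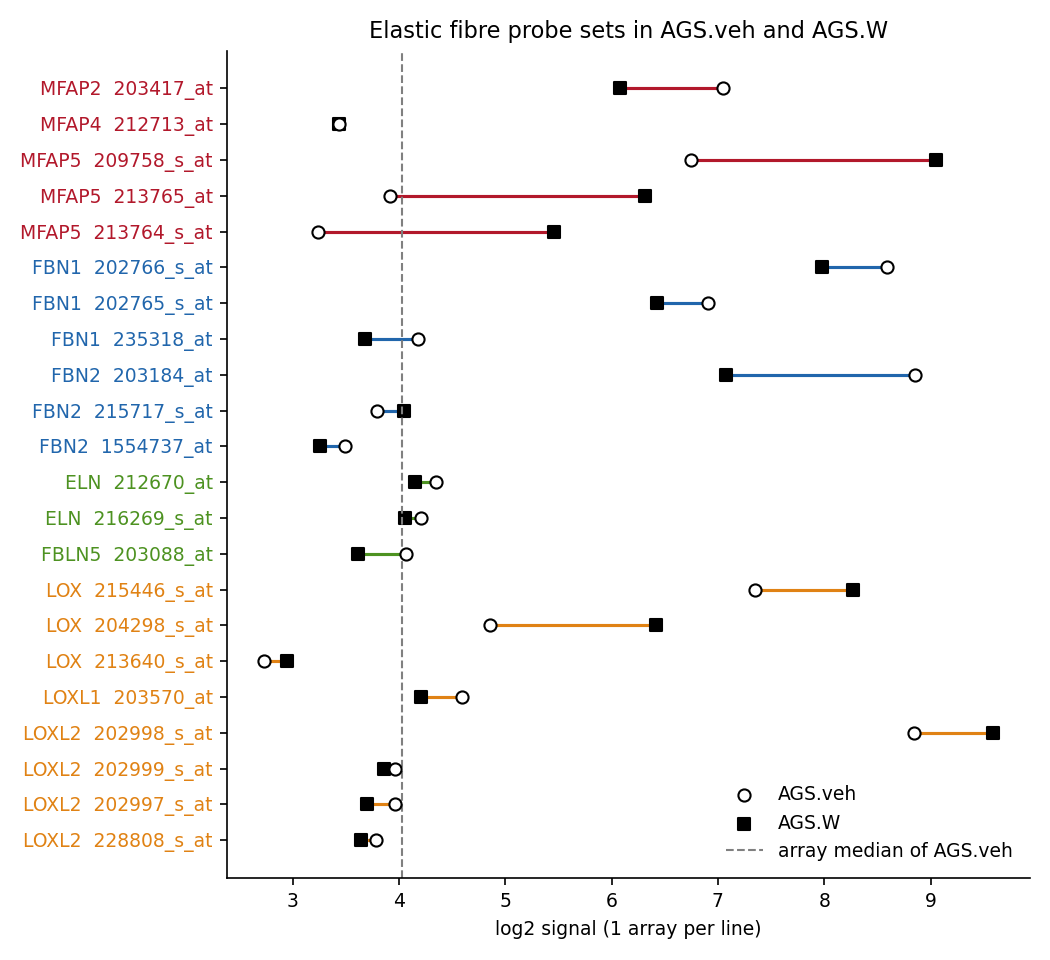
Log2 signal (horizontal axis) of each of the 22 member probe sets (rows, coloured by role) in AGS.veh (open circles) and AGS.W (black squares), 1 array each, with the AGS.veh array median of 4.03 as a dashed line. The 3 MFAP5 rows run to the right, from 6.75 to 9.05 on the brightest, and the FBN2 probe set 203184_at runs to the left, from 8.85 to 7.08.

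Both fibrillins were lower in AGS.W on their bright probe sets. FBN2, the fibrillin best known from developing tissue, had log2 signals of 7.08 in AGS.W against 8.85 in AGS.veh on 203184_at, a difference of -1.77, or 3.40-fold lower. This was the only member probe set at least 2-fold lower, at rank 77 from the lowest of all probe sets. The other FBN2 probe sets lay near or below the median, where 215717_s_at had 4.05 and 3.79 and 1554737_at had 3.26 and 3.49, differences of 0.25 and -0.22. Averaged over its 3 probe sets FBN2 had -0.58, so its size rests on 1 probe set. FBN1, the main fibrillin of adult tissue and the gene mutated in Marfan syndrome, was lower on all 3 of its probe sets but by less than 2-fold. Its differences were -0.61 on 202766_s_at (7.98 in AGS.W against 8.59 in AGS.veh), -0.48 on 202765_s_at (6.43 and 6.91) and -0.50 on 235318_at (3.68 and 4.18). The last of these was dim in AGS.W and had -0.15 with that signal set to the array median.

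Elastin itself had signals close to the array medians in both lines. ELN, the monomer of the elastic core, had log2 signals of 4.15 in AGS.W against 4.35 in AGS.veh on 212670_at, and of 4.06 and 4.21 on 216269_s_at. FBLN5, which tethers elastin to microfibrils and to cells, had 3.62 and 4.07, a difference of -0.44 that became -0.04 with the dim signal set to the median. Signals this near the median may be mostly background, and no difference is read from them.

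The lysyl oxidases lay on both sides of 0. LOX, the founding enzyme, was higher in AGS.W on all 3 probe sets. On its brightest, 215446_s_at, log2 signals were 8.27 in AGS.W against 7.35 in AGS.veh, a difference of 0.92, or 1.90-fold. On 204298_s_at they were 6.42 and 4.86, a difference of 1.55, or 2.93-fold, and on 213640_s_at 2.95 and 2.73, below both medians. LOX is thus past 2-fold on 1 probe set of 3 and just short of it on the brightest. LOXL2, which also cross-links collagen IV, had 9.59 and 8.84 on 202998_s_at, a difference of 0.75, or 1.68-fold. Its other 3 probe sets were below the median on both arrays, with differences from -0.25 to -0.10, so LOXL2 was higher on its only bright probe set and had 0.06 averaged over all 4. LOXL1, the family member tied to elastic fibre upkeep, had 4.21 and 4.59, a difference of -0.37 near the median.

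**Figure D2:**
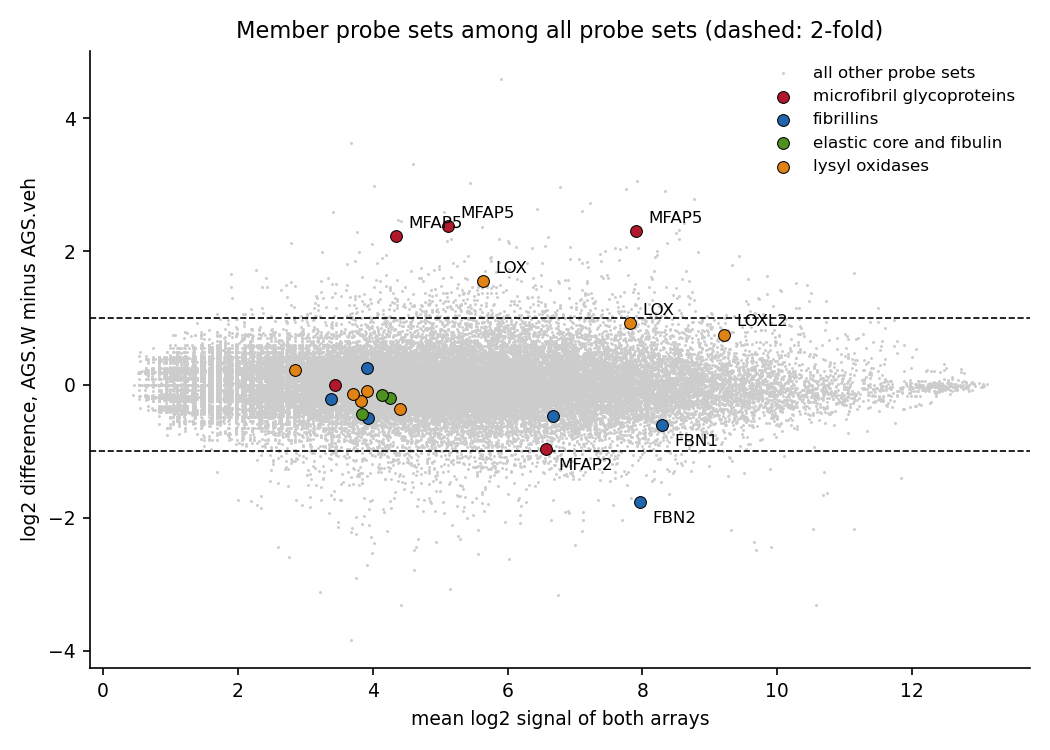
Log2 difference, AGS.W minus AGS.veh (vertical axis), against the mean log2 signal of both arrays (horizontal axis) for all probe sets (grey) and the member probe sets (coloured by role), with dashed lines at 2-fold. MFAP5 and the LOX probe set 204298_s_at lie above the upper line, FBN2 at -1.77 lies below the lower one and MFAP2 at -0.97 just inside it, while the dim members cluster around 0.

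Counted over all 22 member probe sets, 4 were at least 2-fold higher in AGS.W (3 of MFAP5 and 1 of LOX) and 1 was at least 2-fold lower (FBN2). That is 18.2% and 4.55%, beside 1.07% higher and 1.12% lower of all probe sets, shares from which nothing can be read because the members were chosen on this contrast. In either direction, 8 probe sets were higher, 13 lower and 1 equal, which includes the 6 below the median on both arrays. Of the 9 member genes whose brightest probe set reached the median on at least 1 array, 3 were higher and 6 lower. Of all 12811 such genes, 5850 were higher and 6466 lower. Nothing can be read from these counts either, for the same reason. By the brightest probe set of each gene, the 10 genes had a median difference of -0.29, beside 0.00 for all 19775 genes, with MFAP5 at one end and FBN2 at the other. This median lies between LOXL1 at -0.37 and ELN at -0.20, both with signals near the array medians, so no shift of the group is read from it. MFAP5 was past 2-fold by each of the 4 summaries tried, FBN2 by all but the mean of probe sets, and LOX by its probe set of largest difference alone. Without probe sets of the _s_at and _x_at types, whose probes can match several transcripts, LOX and LOXL2 have no value, because all of theirs carry the _s_at suffix. In RNA of whole cultures, fewer cells that express a gene and less RNA of it per cell cannot be told apart.

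**Figure D3:**
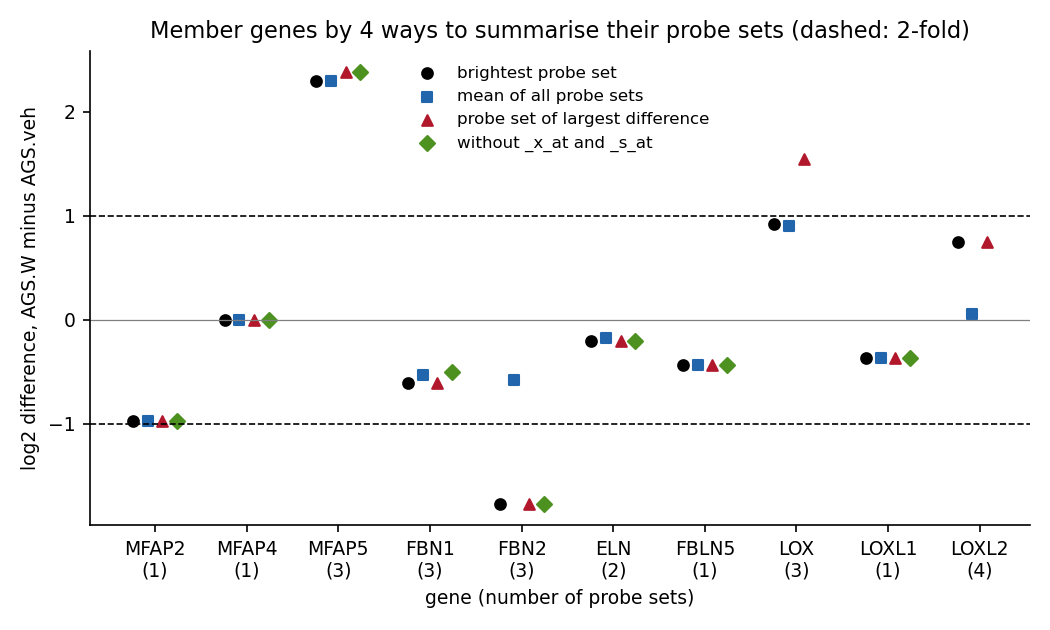
Log2 difference, AGS.W minus AGS.veh (vertical axis), of each member gene (number of probe sets in parentheses) by its brightest probe set (circles), the mean of its probe sets (squares), its probe set of largest difference (triangles) and without _x_at and _s_at types (diamonds), with dashed lines at 2-fold. The 4 values of MFAP5 stay between 2.30 and 2.38, whereas FBN2 goes from -1.77 to -0.58 and LOX from 0.90 to 1.55.

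The other genes of elastic fibre assembly and turnover were taken from 12 lists with 80 genes, of which 78 had a probe set of their own and 59 passed the signal filter, the median on at least 1 array. Of these 59, 1 was at least 2-fold higher and 4 were at least 2-fold lower in AGS.W. That is 1.69% and 6.78%, beside 1.83% and 1.94% of the 12811 genes that passed the same filter. The median difference was -0.10, beside -0.01. Nothing can be read from these shares or from the median, because the lists were chosen with earlier results of these data known. On 8 of the 12 lists no gene was 2-fold apart.

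Among proteins that sit on the fibre, the gene at least 2-fold higher was FBLN7, a cell-adhesive fibulin, with log2 signals of 6.17 in AGS.W against 5.07 in AGS.veh on its single probe set, a difference of 1.09. EFEMP2, a fibulin that brings LOX to elastin, had 5.40 and 4.67 on its brightest probe set, a difference of 0.73, and its relative EFEMP1 had 9.12 and 9.68, a difference of -0.56. These fibulins therefore lay on both sides of 0. The latent TGF-beta binding proteins, which share the repeat structure of fibrillins, ranged from -0.34 for LTBP2 to 0.29 for LTBP1. THSD4, a protein that promotes fibrillin assembly, had 6.48 and 7.35 on its brightest probe set, a difference of -0.87 that shrank to -0.29 when its probe sets were averaged. MFAP1, which shares the name but is a nuclear splicing protein, had a difference of 0.24.

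Of the genes that mature lysyl oxidases or supply their copper, 7 of 10 passed the filter and none was 2-fold apart. BMP1, the protease that cleaves the LOX propeptide, had a difference of -0.54 on its brightest probe set. Its other probe sets ranged from -0.49 to 0.20. The copper chaperone ATOX1 had log2 signals of 8.07 in AGS.W against 8.75 in AGS.veh, a difference of -0.69. ATP7A, the pump that loads copper into secreted enzymes, had -0.54 on its brightest probe set. Its other probe set, also above the median on both arrays, had -0.09. SLC31A1, the copper importer, had differences of 0.49 and 0.58 on the probe sets above the median, and 0.42 on the remaining one, which was below it on both arrays. Of the remaining lysyl oxidases, LOXL3 had -0.10 and LOXL4 had 0.31, both near the array median.

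Genes of elastic fibre breakdown also held differences past 2-fold. CTSS, a lysosomal protease that degrades elastin, had log2 signals of 4.67 in AGS.W against 6.38 in AGS.veh on its brightest probe set, a difference of -1.71, or 3.27-fold lower. A second CTSS probe set above the median had 4.09 and 5.59. PI3, the elastase inhibitor elafin, had 5.64 and 7.17 on one probe set and 4.87 and 6.21 on the other, differences of -1.53 and -1.34. A protease of elastin and an inhibitor of elastases were thus both lower in AGS.W. TIMP3, a matrix-bound inhibitor of metalloproteases, had 6.63 and 5.93 on its brightest probe set, a difference of 0.70, and its 4 probe sets ranged from 0.67 to 1.16. MMP2 and MMP12 were below the median on both arrays.

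Microfibrils store latent TGF-beta, and the ligand TGFB2 and the receptor TGFBR2 were the members of that list at least 2-fold lower. TGFB2 had log2 signals of 4.12 in AGS.W against 6.22 in AGS.veh on its brightest probe set, a difference of -2.10. Its 5 probe sets ranged from -3.12 to 0.00 and averaged -1.50, and the brightest was the only one above the median on both arrays. TGFBR2 had 6.67 and 7.78, a difference of -1.11 that shrank to -0.67 when averaged over its probe sets. Neither TGFB1, at -0.11, nor TGFBR1, at 0.13, was 2-fold apart on its brightest probe set. Among the integrins, the largest difference was that of ITGB8, a partner of ITGAV, with log2 signals of 4.41 and 5.33 on its brightest probe set, a difference of -0.92 that shrank to -0.27 when averaged over its probe sets. Of the other integrin subunits, ITGAV had 7.50 and 8.13, a difference of -0.63, ITGA5 had 7.90 and 7.30, a difference of 0.60, and ITGB3, the partner of ITGAV through which MFAP5 is known to act, had 4.30 and 3.95, close to the medians. NOTCH1, a receptor whose ligands bind MFAP2 and MFAP5, had a difference of -0.47 on its brightest probe set. That shrank to -0.18 when averaged over its probe sets. JAG1 and JAG2 had -0.01 and -0.27 on their brightest probe sets. No matrix proteoglycan was 2-fold apart. Among the brightest probe sets of that list above the signal filter, the largest difference was -0.17. This was for HSPG2, the basement membrane proteoglycan perlecan, with log2 signals of 6.85 and 7.02.

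**Figure D4:**
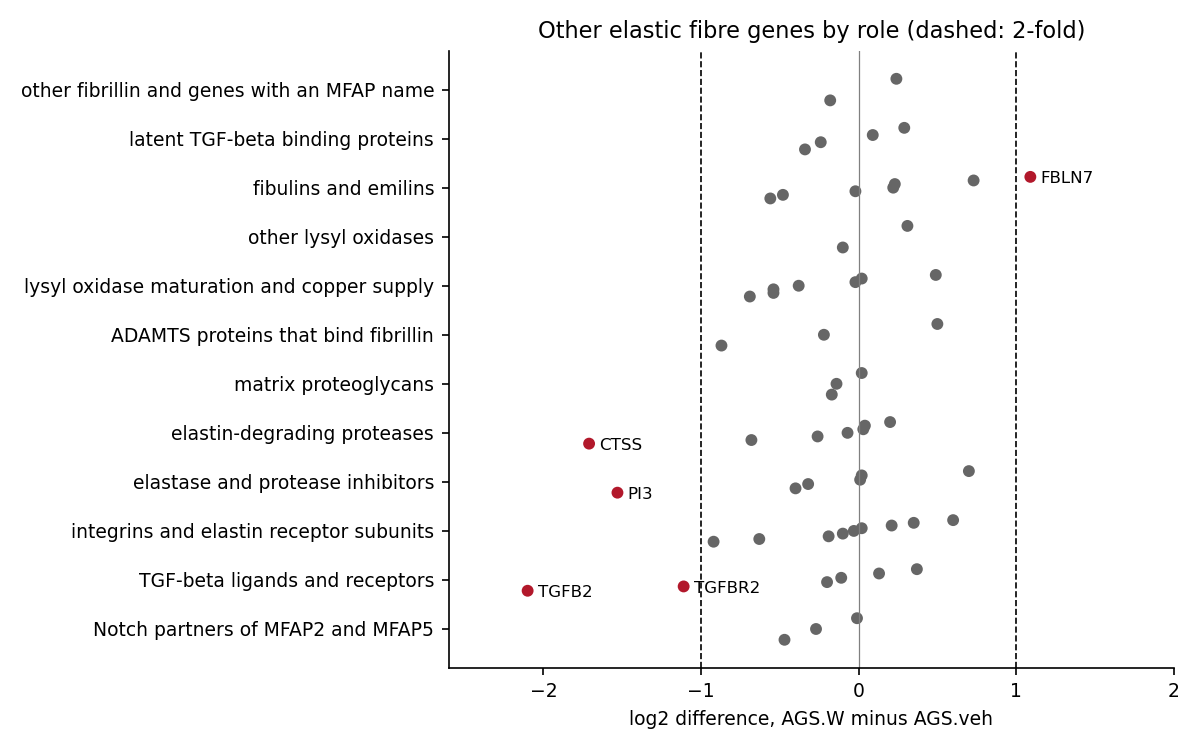
Log2 difference, AGS.W minus AGS.veh (horizontal axis), of the brightest probe set of each of the 59 other elastic fibre genes above the signal filter (points), by role (rows), with dashed lines at 2-fold. FBLN7 at 1.09 is the only point beyond the upper line, and TGFB2, CTSS, PI3 and TGFBR2 lie beyond the lower one.

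Markers of fibroblasts, the cells in which most of these genes are best known, were measured beside MFAP5. Of 8 such genes, 4 passed the signal filter and none was 2-fold apart, and COL1A2, COL3A1, LUM and FAP were below the median on both arrays. The sum of their linear signals was 327 in AGS.W against 205 in AGS.veh. Most of both sums came from COL1A1, by far the brightest of them, so they do not show a rise of these markers as a group. COL1A1 had the largest difference, 0.94, with log2 signals of 7.89 and 6.95 on its brightest probe set. The other COL1A1 probe sets had differences from -0.34 to 0.62. The brightest probe sets of PDGFRA, THY1 and DCN had differences of 0.54, 0.27 and -0.14. That of PDGFRA became 0.11 with its dim AGS.veh signal set to the array median. Of 5 smooth muscle markers, ACTA2 and CNN1 were below the median on both arrays, whereas TAGLN had 6.72 and 6.50, DES 4.81 and 4.72 and MYH11 4.24 and 4.24 on their brightest probe sets. Of 4 endothelial markers, VWF, CDH5 and KDR were below it and PECAM1 had 4.83 and 4.64. Of 3 leukocyte markers, PTPRC and MS4A1 were below it and CD3E had 4.39 and 4.42. None of these markers above the median was 2-fold apart between the lines by its brightest probe set. Their part in the MFAP5 difference was not tested. By difference alone, over 2 arrays, the genes nearest to MFAP5 among those above the median on both arrays were the calcium channel gene ITPR1 with 2.32, the protein-folding oxidase ERO1A with 2.27 and the glycolytic enzyme ALDOC with 2.19.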

How the data were processed

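Per the labels and the methods, RNA of AGS.W and AGS.veh was each read by 1 Affymetrix U133 Plus 2.0 array. As deposited, every probe set has a log2 signal that the authors had normalized, with upper quartiles of 5.83 on both arrays. The submitters' processing notes list MAS5 and RMA without role or version. How the background was corrected is not given in the sources used here. Precision is limited by the number of arrays.

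After 62 control probe sets were left out, annotation of 2016 gave 41091 probe sets 1 gene, 1801 several and 11721 none. Those with several genes were left out, and none of them named a member. RefSeq gene identifiers (GRCh38.p14) gave current symbols, except for 54 probe sets, which kept the older one. A gene was represented by its probe set of highest mean signal. The fold threshold was 2, as in the study's methods, whose FDR could not be applied to 1 array a line. The named genes were all members, up to 3 in each direction per pathway list at least 2-fold apart or otherwise the largest difference, and the 3 genes nearest MFAP5. Further genes of the lists were named for their role after their values were seen. The members and lists were chosen with earlier results of these data known. The counting was tested on simulated data. Alternatives were other signal filters, other fold thresholds, other summaries of probe sets, and scaling by array medians, by quantiles or by a lowess curve with a span of 0.3. Python 3.11.15, numpy 2.4.6, pandas 2.3.3, scipy 1.17.1, statsmodels 0.14.6 and matplotlib 3.10.9 were used.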

Additional observations from a re-analysis of the deposited data

How the results depend on the processing

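No paired analysis was possible because there was 1 array per line, which also meant that no replicate could be dropped. Moves were compared with the robust spread of differences among the 1000 probe sets nearest in mean signal, between 0.25 and 0.39 for the members. Over 22 probe sets and other scalings, 66 of 66 differences stayed within it, and the largest move was 0.04. The deposited arrays already had near-equal medians and upper quartiles. Scaling by medians or quantiles could therefore hardly move a difference, and this is no check of the differences. With dim signals set to the array median, 3 moved, namely 1 of MFAP5, 1 of FBN1 and that of FBLN5. The 4 member probe sets at least 2-fold higher became 2 when both arrays had to reach the median. At 1.5-fold the 4 higher became 6 and the 1 lower became 3, and at 3-fold 3 were higher and 1 lower. Of member genes, 1 was higher and 1 lower, which became 2 higher by the probe set of largest difference, 0 lower by the mean of probe sets, and 3 higher and 3 lower at 1.5-fold. Of the other elastic fibre genes, 1 was higher and 4 lower, which became 2 higher by the probe set of largest difference, 4 higher and 9 lower at 1.5-fold, and 0 higher and 2 lower at 3-fold. An offset before log2 was planned for linear values and was not run. Signals near the array median limit what can be said of MFAP4, ELN, FBLN5 and LOXL1.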

Other observations

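The measured genes next to each member in RefSeq's order for GRCh38.p14, 2 on each side, were listed after the values were seen, which gave 40 genes with 96 probe sets. MFAP5 lies beside RIMKLB, an enzyme gene that joins glutamate to other molecules, and all 5 RIMKLB probe sets were higher in AGS.W, with log2 differences from 0.63 to 2.96 and 4 of them at least 2-fold. On its brightest by mean signal, 229344_x_at, RIMKLB had log2 signals of 9.83 in AGS.W against 7.41 in AGS.veh. That probe set and 226164_x_at, which had the 2.96, are of the _x_at type, whose probes can match several transcripts. Probe set 236911_at had 3.85 and 1.72, below the median on both arrays. The remaining RIMKLB probe sets, 225999_at and 225978_at, had differences of 2.05 and 0.63. The next measured genes around MFAP5 and RIMKLB, namely A2ML1, CLEC4D and CLEC4E, were below the median on both arrays on every probe set. A2ML1 had differences of 0.22 and 0.57, CLEC4D of 0.18 and 0.42 and CLEC4E of -0.03 and -0.04. Such signals may be little but background, so they do not show whether these genes differ. Next to FBN1, CEP152 had 1 of 5 probe sets at least 2-fold higher, with 1.43, while FBN1 itself was lower. No other neighbour had a probe set 2-fold higher, and none had one 2-fold lower. Next to FBN2, the probe sets of SLC12A2, SLC12A2-DT, SLC27A6 and ISOC1 had differences from -0.94 to 0.00. Those of SLC12A2-DT and SLC27A6, the latter at -0.94, were all below the median on both arrays and may be little but background. The brighter ones had -0.17 and -0.74 for SLC12A2 and -0.32 for ISOC1. Whether genes of this region differ together was not tested. Next to LOX, SRFBP1 and PRR16 on one side had differences from -0.42 to -0.26, and ZNF474 and ZNF475 on the other had 0.23 and 0.37. Of these, only SRFBP1 was above the median.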
